A study of Homo sapiens with 8 samples.

Results

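The 7 enzymes of the pentose phosphate pathway and of NADPH supply studied here, PGD, TKT, TALDO1, ME1, IDH1, PGLS and RPIA, were followed in maps of H3K27ac, the acetylated histone H3 that marks active promoters and enhancers. Peaks of 6 libraries were joined into 49186 regions wherever they overlapped by 1 base or more. The 19 of these that touched a gene body of the 7 genes, extended by 20 kb on each side, are described here. Of the 19, 8 reached to within 1 kb of a coding transcript start of the member itself and were called its promoter. Another 4 held only the start of a neighbouring gene, and 7 were distal, with no coding start within 1 kb. The regions ran from 594 to 32766 bases, with a median of 3475.

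The cells were A549, an established human lung adenocarcinoma line with mutant KEAP1 in which NRF2 is persistently active. They were harvested 48 h after transient transfection with control siRNA (3 libraries) or with siRNA against NRF2 (3 libraries), so all groups share the KEAP1-mutant background. NRF2 siRNA 28 was used in replicate 1 and NRF2 siRNA 30 in replicates 2 and 3. The replicates are independent experiments per the study's methods. An siRNA lowers a transcript, so peak lists hold no check of the knockdown itself: NFE2L2, the gene of NRF2, had a peak over its start in 6 of 6 libraries. The control lists held 27941, 34747 and 41571 peaks and the NRF2 siRNA lists 23885, 34986 and 39108. Peaks covered 64.7, 85.0 and 113 Mb in the control and 46.3, 84.8 and 106 Mb in the NRF2 siRNA libraries, so replicate 1 had the least coverage in both groups. Replicate 1 of both groups was also sequenced less deeply than the others, per the study's reporting summary. Peak names of replicate 1 also lack the flow cell identifier that those of replicates 2 and 3 carry, and this batch and siRNA 28 cannot be told apart. Of 8 markers fixed for a lung adenocarcinoma line, EPCAM, KRT7, KRT8 and KRT18 had a peak at their start in 6 of 6 libraries, CDH1 had one in 2 control and 1 NRF2 siRNA library, and NKX2-1, SFTPC and NAPSA had one in 0. Of the 3 markers of blood and endothelial cells found in the annotation, PTPRC, CDH5 and CD3E, each was called in 0 libraries.

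NADPH is the reducing power that cells spend on glutathione and thioredoxin recycling and on the synthesis of lipids and nucleotides. In the oxidative branch of the pentose phosphate pathway the lactonase PGLS makes 6-phosphogluconate, from which the dehydrogenase PGD then makes NADPH. Ribose-5-phosphate isomerase (RPIA), transketolase (TKT) and transaldolase (TALDO1) form the non-oxidative branch, which returns pentoses to glycolysis or supplies ribose. Malic enzyme (ME1) and isocitrate dehydrogenase (IDH1) make NADPH in the cytosol by other routes. NRF2 binds DNA with a small MAF partner at antioxidant response elements, and several of these genes are known as its targets.

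The regions were searched on both strands for a core of that element, TGACNNNGC, for the AP-1 element TGANTCA, and for TGACTCAGC. The last is a narrower form of the first that also contains the second, and it was chosen after the matches of TGACNNNGC had been seen. TGACTCAGC occurred once in each of 5 of the 19 regions. Its surroundings are printed because these are the places where the peak maps below can be read against the letters of the element. Coordinates are hg19 (GRCh37), the sequence is that of the reference genome, each line reads 5′ to 3′ on the strand of the match, and capitals mark TGACTCAGC.
TALDO1 promoter region, match at chr11:746511-746519, plus strand, intergenic, 949 bases before the TALDO1 start: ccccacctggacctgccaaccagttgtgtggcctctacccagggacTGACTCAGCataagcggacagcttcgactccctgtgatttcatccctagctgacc
RPIA gene body region, match at chr2:89035617-89035625, plus strand, intron of RPIA: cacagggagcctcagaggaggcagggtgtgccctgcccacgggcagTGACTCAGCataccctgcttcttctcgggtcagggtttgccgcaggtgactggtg
PGD upstream region, match at chr1:10448267-10448275, plus strand, intergenic, 10850 bases before the PGD start: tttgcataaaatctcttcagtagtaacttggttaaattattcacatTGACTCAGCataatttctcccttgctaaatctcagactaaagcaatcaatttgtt
TKT promoter region, match at chr3:53270364-53270372, plus strand (TKT is on the minus strand), intron of TKT: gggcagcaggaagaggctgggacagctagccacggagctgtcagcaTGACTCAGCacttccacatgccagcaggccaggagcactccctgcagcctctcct
ME1 promoter region, the 250 bases before the ME1 start at chr6:84140771-84141020, minus strand: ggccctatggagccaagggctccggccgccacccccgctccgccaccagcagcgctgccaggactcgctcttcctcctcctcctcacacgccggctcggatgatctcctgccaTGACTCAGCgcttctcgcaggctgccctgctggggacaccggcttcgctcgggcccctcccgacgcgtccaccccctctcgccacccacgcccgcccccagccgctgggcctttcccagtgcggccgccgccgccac

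In these 5 lines the same letters lie at different distances from a start: 133 bases before it in ME1, 949 bases before it in TALDO1, and far upstream or in an intron in the others. The match in TALDO1 lay under a peak in 3 control and 0 NRF2 siRNA libraries. The match in the RPIA intron was also covered in 3 control and 0 NRF2 siRNA libraries. Its region was called in control libraries only, so that 0 follows from the calls. How many matches over all regions were covered in this way was not counted. The matches near PGD, TKT and ME1 were under a peak in 3 and 3. Long regions hold the letters more often by length alone. Among tested regions within 10% of the same length, TGACTCAGC occurred in 9.22% for the TALDO1 promoter, 6.45% for the RPIA gene body region, 15.6% for the ME1 promoter, 35.5% for the region upstream of PGD and 48.1% for the TKT promoter. In the 250 bases before a start, 0.460% of 34796 promoters in the RefSeq table (GRCh38.p14) held it and 10.9% held TGACNNNGC. All 7 members were in that table, and 1 of their 8 promoters, that of ME1, held TGACTCAGC. Over all tested regions TGACTCAGC occurred in 10.5%, in 51.0% of those called lower and in 6.54% of those called higher after NRF2 siRNA. TGANTCA occurred in 67.0%, 87.5% and 90.1% of the same sets and TGACNNNGC in 63.7%, 88.5% and 58.1%. A match of letters is a description and not a site of binding.

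To set libraries of different list length side by side, each region was given the percentile of its highest fold enrichment among all peaks of the same library. For testing, ranks within a library were turned into normal scores and compared with limma over 32673 regions called in at least 3 of 6 libraries, 17 of the 19 among them. A change is NRF2 siRNA minus control in these score units, given with its standard error, and the adjusted p is Benjamini-Hochberg over all 32673. Among the 17 tested regions, 14 had a lower and 3 a higher mean score after NRF2 siRNA, with a median change of -0.38. The median over all regions tested was 0.02, with 48.5% lower. One region, the TALDO1 promoter, passed the threshold of 0.05 as lower and 0 as higher, while over all regions 3.39% were called lower and 2.01% higher. At an unadjusted p under 0.05, 6 of the 17 passed, against 22.5% over all regions. The RPIA gene body region is among the 14 and among the 6. It was called in control libraries only, so its lower score was set by the filter. Of the 11 regions called in 6 of 6 libraries, 6 had a lower percentile in every NRF2 siRNA library than in every control library, 0 a higher one, and 5 overlapped. Over all 16845 such regions, 11.3% were lower and 8.85% higher without overlap. A smaller number of acetylated cells and less acetylation per cell cannot be told apart in these bulk samples.

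**Figure D1:**
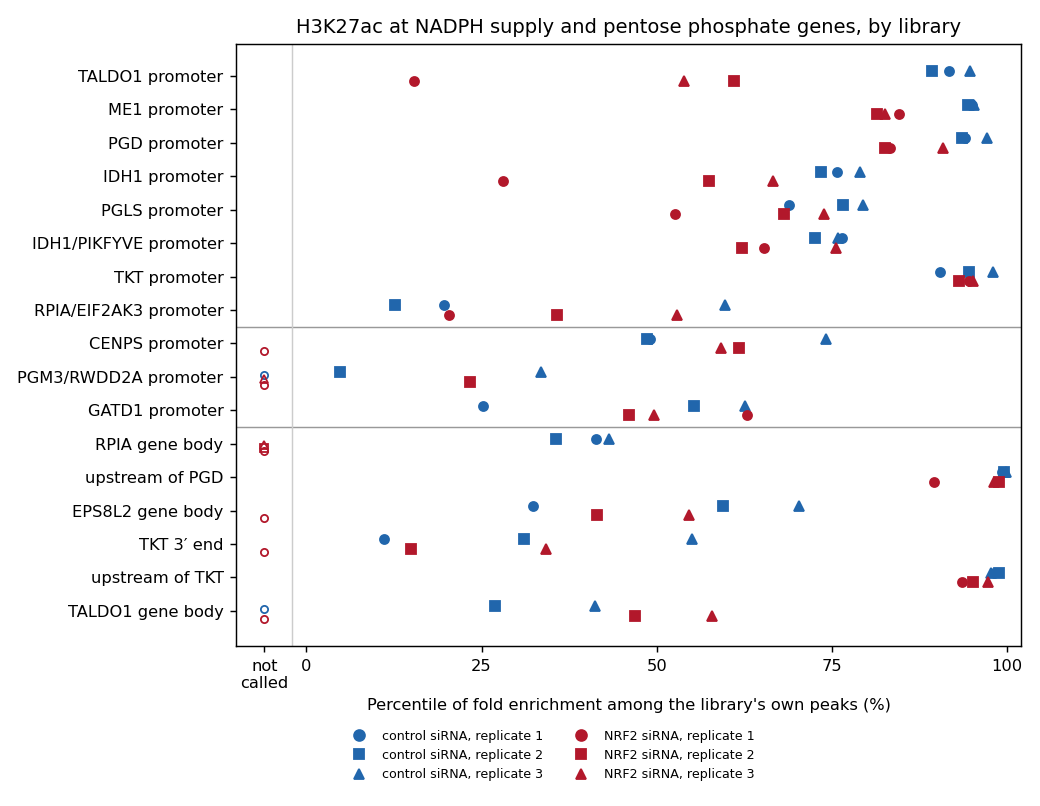
Percentile of fold enrichment among the library's own peaks (horizontal axis, %) for the 17 tested regions, with own promoters at the top, promoters of neighbouring genes in the middle and distal regions below. Blue marks are control siRNA and red marks NRF2 siRNA libraries, shapes are replicates, and open marks at the left are libraries without a peak; the TALDO1 promoter shows the widest gap among regions called in all 6 libraries, from 89.3 or more in control to 61.0 or less after NRF2 siRNA.

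TALDO1, the transaldolase that moves carbon units between sugars of the non-oxidative branch, had the region that passed the threshold. Its promoter region (chr11:746212-749686, the start and first exon of TALDO1 with the sequence before it) stood at the 91.6, 89.3 and 94.7 percentile in control and at the 15.3, 61.0 and 53.9 percentile in NRF2 siRNA replicates 1, 2 and 3. The groups did not overlap, and the NRF2 siRNA library lowest of all was replicate 1. The means were 91.9 ± 2.72 and 43.4 ± 24.6 (SD, n = 3 each), a difference of -48.5 points (exact permutation test, two-sided, p = 0.1, the smallest that 3 against 3 can give). In limma the change was -1.37 ± 0.21 (adjusted p = 0.0121). It was -1.56, -0.97 and -1.59 in pairs 1, 2 and 3. The call was lost without control siRNA replicate 2 (limma adjusted p = 0.0547), control siRNA replicate 3 (0.0617) or NRF2 siRNA replicate 2 (0.0548), with changes of -1.46, -1.33 and -1.49. Over 17 settings the limma adjusted p ran from 0.00056 to 0.0617 and was under 0.05 in 14.

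The peaks themselves became shorter at this promoter. They covered 3.09, 3.28 and 3.30 kb in control and 1.08, 2.23 and 1.51 kb in NRF2 siRNA libraries, again without overlap. Counted from the TALDO1 start, with sequence before it negative, the control peaks began at -0.988, -1.25 and -1.08 kb. The NRF2 siRNA peaks began at 0.185 kb in replicate 1, -0.786 kb in replicate 2 and -0.031 kb in replicate 3. The printed TGACTCAGC, 949 bases before the start, therefore lay inside each control peak and outside each NRF2 siRNA peak. It was close to the edge of the peak in control replicate 1 (-0.988 kb), and the placing of peak edges was not tested. In NRF2 siRNA replicate 1 the start itself was not under a peak. The authors' fold enrichment there was 8.54, 8.18 and 12.7 in control and 3.13, 4.80 and 4.18 in NRF2 siRNA lists.

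The other 3 regions around TALDO1 did not pass the threshold. A region in the gene body (chr11:762270-763948), not called in replicate 1 of either group, stood at the 26.9 and 41.1 percentile in control and at the 46.9 and 57.9 percentile in NRF2 siRNA replicates 2 and 3. These called percentiles did not overlap and were higher after NRF2 siRNA (change 0.44 ± 0.28, limma adjusted p = 0.402). The promoter of GATD1, a neighbouring gene, had a change of 0.12 (limma adjusted p = 0.846), and a region in EPS8L2, called in 3 control and 2 NRF2 siRNA libraries, one of -0.54 (0.251), which was -0.31 without NRF2 siRNA replicate 1. The difference between these regions and the promoter was not tested.

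**Figure D2:**
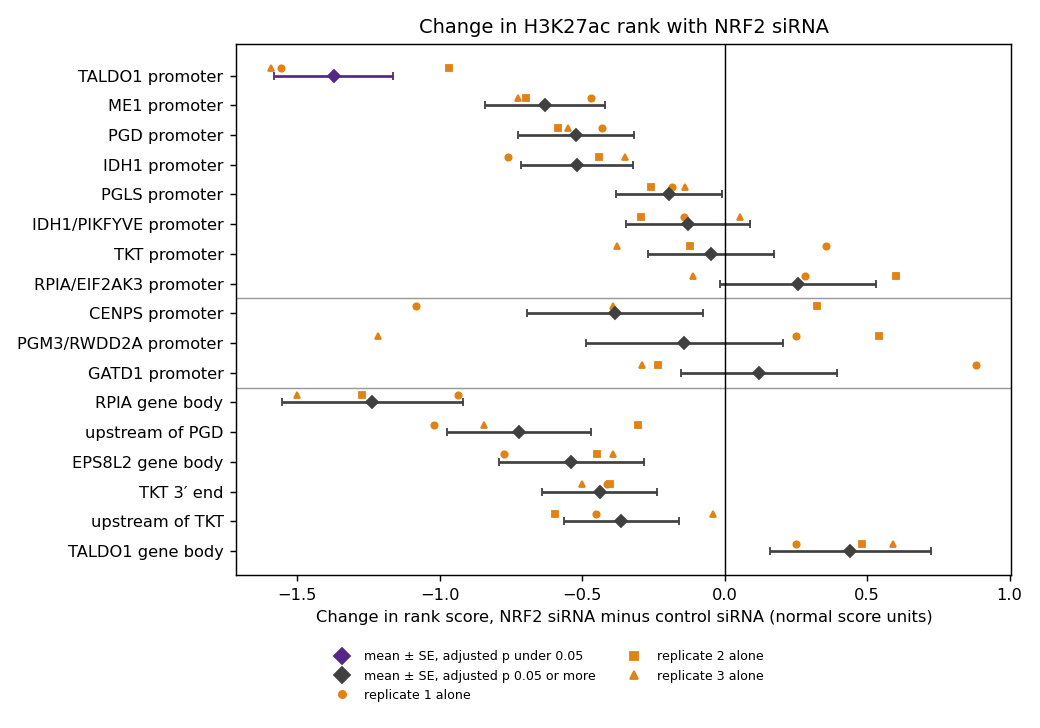
Change in rank score, NRF2 siRNA minus control siRNA (horizontal axis, normal score units), for the 17 tested regions in the same 3 blocks. Diamonds and bars are the limma mean and standard error, purple where the adjusted p was under 0.05, and small marks are single pairs; the TALDO1 promoter (-1.37) is the one purple mark and 14 of 17 means lie below 0.

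RPIA, the isomerase that supplies ribose-5-phosphate, showed a loss of calls inside its gene body. A region at chr2:89034811-89036609, which overlaps a coding exon and the printed intron match and lies 43620 bases from the RPIA start, stood at the 41.3, 35.7 and 43.2 percentile in control. It had no peak in any of the 3 NRF2 siRNA libraries. Over all tested regions, 3.42% were called in 3 control and 0 NRF2 siRNA libraries, and 1.25% the other way round. Because the region entered the test through its control calls alone, its score had to differ, and no p of this region is support for a difference. The limma change was -1.24 ± 0.32 (adjusted p = 0.0573, and 0.0103 with the replicate block). When each list was held to its 23885 peaks of highest fold, the change was -0.57 (limma adjusted p = 0.270, and 0.0887 with the replicate block). The RPIA promoter (chr2:88990455-88992124), which it shares with EIF2AK3, a kinase of the unfolded protein response, behaved otherwise. It stood at the 19.6, 12.7 and 59.8 percentile in control and at the 20.4, 35.7 and 52.8 percentile in NRF2 siRNA libraries. The groups overlapped, replicate 3 was highest in both, and the change was 0.26 ± 0.27 (limma adjusted p = 0.634).

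ME1, the cytosolic malic enzyme, had the smallest spread of the own promoters in control. Its promoter region (chr6:84138939-84145366, the start and first exon with upstream sequence) stood at the 95.0, 94.4 and 95.2 percentile in control and at the 84.6, 81.5 and 82.5 percentile in NRF2 siRNA libraries. The groups did not overlap, and values within each lay close together. The means were 94.9 ± 0.39 and 82.9 ± 1.60 (SD, n = 3 each; exact permutation p = 0.1), yet the limma change of -0.63 ± 0.21 did not pass (adjusted p = 0.114). It did with the replicate block and equal list lengths together (limma adjusted p = 0.0405) and with the trend and robust options of eBayes (0.0373), and not with the block alone (0.0611). The changes were -0.47, -0.70 and -0.73 in pairs 1, 2 and 3. Peaks covered 6.08, 5.49 and 6.29 kb in control and 2.64, 3.18 and 5.19 kb after NRF2 siRNA. They still covered the start and the match 133 bases before it in 6 of 6 libraries, unlike those at TALDO1. The only other region in the ME1 window, at the shared PGM3 and RWDD2A promoter, was called in 2 control and 1 NRF2 siRNA library (change -0.14, limma adjusted p = 0.856).

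PGD, an NADPH-producing dehydrogenase of the oxidative branch, carried 2 regions of high rank, and the peaks in both were shorter after NRF2 siRNA. The promoter and gene body (chr1:10456107-10488872) stood at the 93.9, 93.6 and 97.1 percentile in control and at the 83.3, 82.6 and 90.8 percentile in NRF2 siRNA libraries. The groups did not overlap (exact permutation p = 0.1), and the limma change was -0.52 ± 0.20 (adjusted p = 0.170). In control the highest peak lay over the PGD start. After NRF2 siRNA it lay between 13.6 and 18.2 kb past the start in each library. The peak over the start then stood at the 62.4, 78.7 and 84.9 percentile. Peaks covered 29.4, 30.5 and 32.8 kb of the region in control and 5.68, 12.7 and 16.7 kb after NRF2 siRNA. Each control library had 1 long peak, of 29.4, 29.8 and 32.8 kb, and control replicate 2 a second one of 0.729 kb. The NRF2 siRNA libraries had 4, 3 and 6 peaks, none longer than 9.10 kb. When the mean fold over the peaks was ranked in place of the highest, weighting by length, this region passed (change -0.88, limma adjusted p = 0.0352).

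The second region (chr1:10436101-10454525), upstream of PGD and over the 3′ end of KIF1B, stood at the 99.2, 99.5 and 99.8 percentile in control and at the 89.6, 98.9 and 98.1 percentile after NRF2 siRNA. Its limma change was -0.72 ± 0.25 (adjusted p = 0.128), with the lowest value in replicate 1 and no overlap of the groups (exact permutation p = 0.1). It passed with the replicate block and equal list lengths together (limma adjusted p = 0.0494) and with the trend and robust options (0.0472), and not with the block alone (0.0631). Peaks there covered 15.5, 16.5 and 17.4 kb in control and 6.59, 10.5 and 13.5 kb after NRF2 siRNA. The CENPS promoter, the last region in the PGD window, was called in 3 control and 2 NRF2 siRNA libraries (change -0.38, limma adjusted p = 0.516). Without NRF2 siRNA replicate 1, the library lacking a peak there, that change was -0.046.

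**Figure D3:**
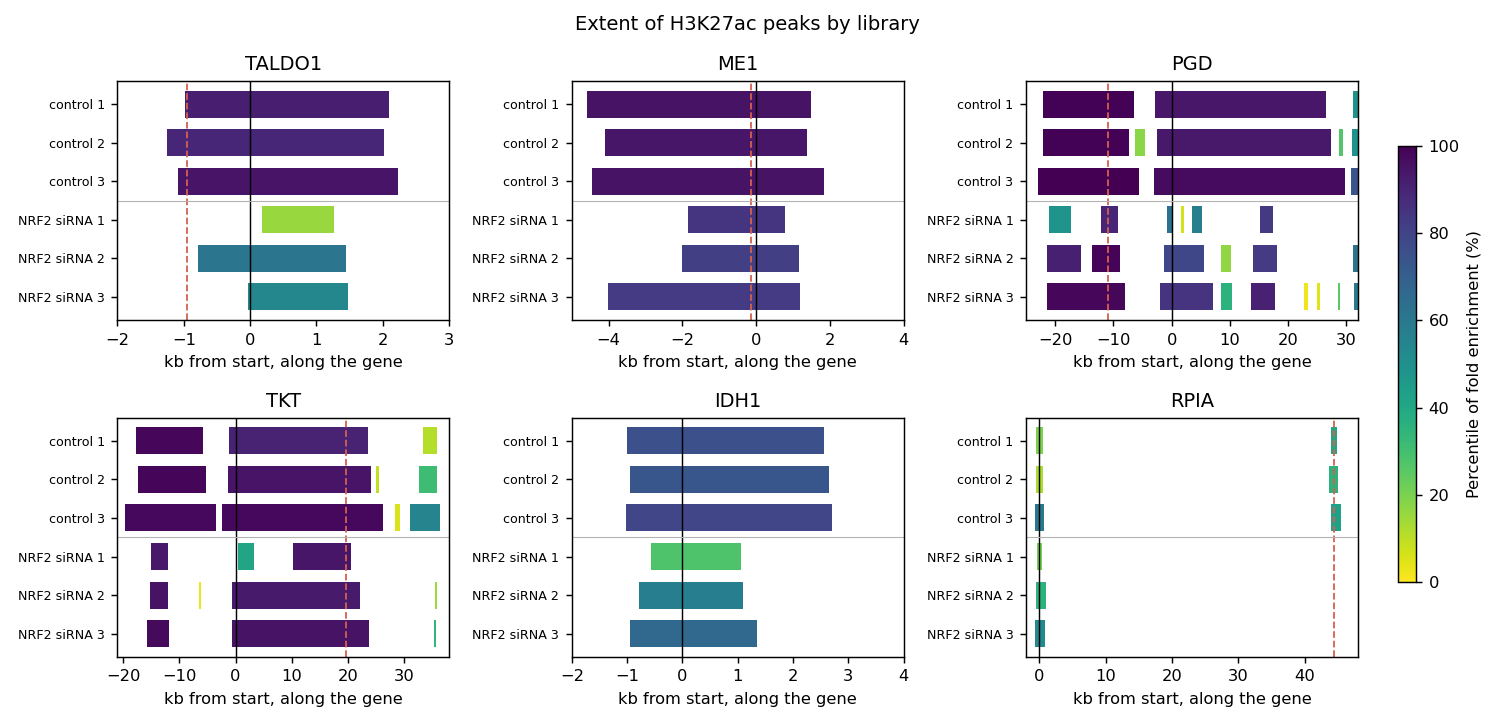
Extent of each library's peaks around 6 of the 7 genes (horizontal axis, kb from the gene start along the gene; one bar per peak, one line per library, colour for the percentile of its fold enrichment in %). The black line is the gene start and dashed red lines mark TGACTCAGC. Control peaks at PGD run unbroken for up to 32.8 kb where NRF2 siRNA peaks cover 16.7 kb or less in pieces. The RPIA gene body peak is seen in the 3 control libraries only.

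TKT, the transketolase, had a region over its promoter and most of its gene whose highest peak kept its rank while the covered length changed. The region (chr3:53263886-53292401, TKT start and most of the gene) stood at the 90.4, 94.6 and 98.0 percentile in control and at the 94.5, 93.1 and 95.2 percentile after NRF2 siRNA. The NRF2 siRNA values lay inside the control range, and the limma change was -0.05 ± 0.22 (adjusted p = 0.928). Peaks covered 24.7, 26.0 and 28.5 kb in control and 13.2, 22.7 and 24.4 kb after NRF2 siRNA, without overlap and by a small margin in replicate 3. In NRF2 siRNA replicate 1 the TKT start was not under a peak, whereas it was in the other 5 libraries. The 94.5 percentile of that replicate came from a peak 10.3 to 20.6 kb past the start, and its peak nearest the start stood at the 41.3 percentile.

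Upstream of TKT, an intergenic region (chr3:53293457-53309655) stood at the 98.2, 98.8 and 97.7 percentile in control and at the 93.6, 95.1 and 97.3 percentile after NRF2 siRNA, without overlap (exact permutation p = 0.1). The limma change was -0.36 ± 0.20 (adjusted p = 0.330). The peaks there covered 12.0, 12.2 and 16.2 kb in control and 2.97, 3.57 and 3.92 kb after NRF2 siRNA. A region at the TKT 3′ end was called in 3 control and 2 NRF2 siRNA libraries (change -0.44, limma adjusted p = 0.238), and one of 831 bases inside TKT was called in 1 control library and was not tested.

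IDH1, which makes cytosolic NADPH from isocitrate, has its starts in both of its regions. The one at the main start (chr2:209117080-209120818, 5′ untranslated exon and intron) stood at the 75.7, 73.4 and 79.0 percentile in control and at the 28.1, 57.4 and 66.6 percentile after NRF2 siRNA. The groups did not overlap, and as at TALDO1 the lowest value was NRF2 siRNA replicate 1 (exact permutation p = 0.1). The limma change was -0.52 ± 0.20 (adjusted p = 0.158), and peaks covered 3.57, 3.60 and 3.74 kb in control against 1.63, 1.88 and 2.29 kb. The other region (chr2:209129466-209131626) holds the start of a longer IDH1 transcript and that of PIKFYVE, a lipid kinase. It stood at the 76.4, 72.6 and 75.9 percentile in control and at the 65.3, 62.2 and 75.6 percentile after NRF2 siRNA. Here the groups overlapped (exact permutation p = 0.2), the limma change was -0.13 ± 0.22 (adjusted p = 0.786), and the covered lengths, 0.998, 1.74 and 2.11 kb against 1.21, 1.85 and 2.03 kb, overlapped too.

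PGLS, the lactonase of the oxidative branch, did not pass. Its promoter region (chr19:17617756-17623671) stood at the 68.9, 76.6 and 79.5 percentile in control and at the 52.6, 68.1 and 73.8 percentile after NRF2 siRNA. The value of NRF2 siRNA was lower in each pair, but the groups overlapped, since NRF2 siRNA replicate 3 lay above control replicate 1 (exact permutation p = 0.2; limma change -0.19 ± 0.19, adjusted p = 0.595). The covered lengths overlapped as well, at 5.06, 3.98 and 5.79 kb against 2.49, 3.64 and 5.22 kb. The other region in its window, over a coding exon of SLC27A1 and near a coding transcript start of that gene, was called in 1 control library and was not tested.

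In order of control level, the PGD (94.9 ± 1.93), ME1 (94.9 ± 0.39), TKT (94.3 ± 3.79) and TALDO1 (91.9 ± 2.72) promoters came first, IDH1 (76.0 ± 2.81) and PGLS (75.0 ± 5.50) followed, and RPIA (30.7 ± 25.4) was lowest (mean percentile ± SD, n = 3). Neighbours within the first 4 and the next pair differed by less than their spread. After NRF2 siRNA the order of the means was TKT (94.2 ± 1.06), PGD (85.6 ± 4.58), ME1 (82.9 ± 1.60), PGLS (64.9 ± 11.0), IDH1 (50.7 ± 20.1), TALDO1 (43.4 ± 24.6) and RPIA (36.3 ± 16.2). The last 4 were within the spread of their neighbours, and TALDO1 moved from the first 4 to among the lowest. Each value is that of the highest peak in the region. After NRF2 siRNA that peak lay in the gene body at PGD in each library and at TKT in replicate 1. The place of these 2 genes is thus not that of the start, where the PGD peak stood at the 62.4, 78.7 and 84.9 percentile.

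Covered length was shorter in every NRF2 siRNA than in every control library for 9 of the 17 tested regions and longer for 0. Over all 32673 tested regions the shares were 10.0% and 3.98%. The 9 include the RPIA gene body region, which entered the test through its control calls alone, so its shorter length was set by the filter. All 4 member regions of 10 kb or more, 2 each at PGD and TKT, were among the 9, where 9.03% of the 1960 tested regions of that size were. This measure was added after the peaks had been seen. It moves with the whole list, whose coverage was lowest in NRF2 siRNA replicate 1, and the part of list length in these differences was not tested.

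**Figure D4:**
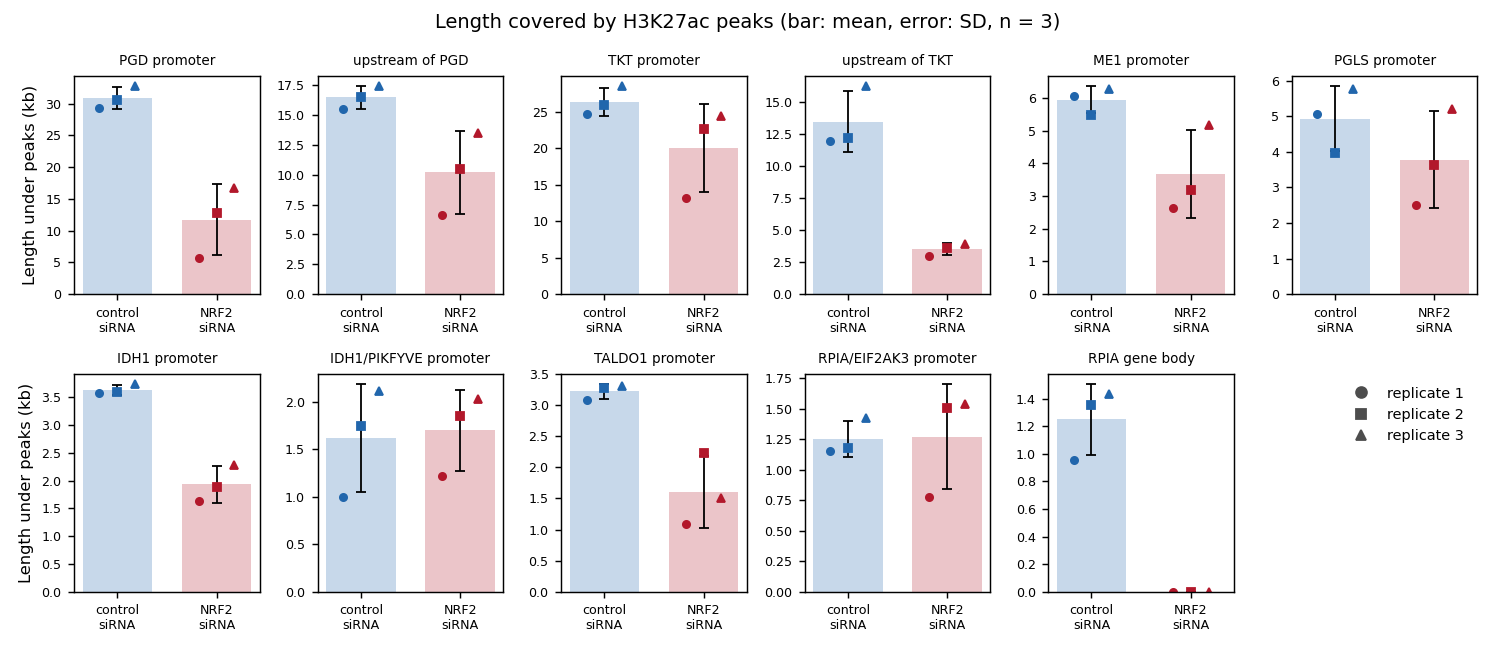
Length under H3K27ac peaks (vertical axis, kb, starting at 0 and scaled separately in each panel) in 11 regions, the 8 own promoters, both long upstream regions and the RPIA gene body region. Bars are means, error bars SD (n = 3) and marks single libraries, blue for control siRNA and red for NRF2 siRNA; the groups are apart at PGD, TKT, ME1, TALDO1, the main IDH1 start and the RPIA gene body, and overlap at PGLS, the IDH1/PIKFYVE start and the RPIA/EIF2AK3 start.

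Promoters were then set against distal regions. The 8 own promoters had a median change of -0.36, with 7 lower. Of the 8, 4 were lower in percentile without overlap, where 11.3% of all 16845 regions called in 6 libraries were. That share was not taken over promoters alone. The medians of the own promoters were -0.31, -0.37 and -0.36 in pairs 1, 2 and 3. Over all 10574 promoter regions tested the median was -0.06, with 57.6% lower. The 6 tested distal regions had a median change of -0.49, with 5 lower, and pair medians of -0.61, -0.43 and -0.45. Over all 22099 distal regions tested the median was 0.08, with 44.2% lower. Both classes of member regions thus lay below their own background, promoter and distal regions alike, and the 3 tested promoters of neighbouring genes had a median of -0.14. Of the 17 tested regions, 10 were lower in all 3 pairs and 1 was higher, where over all tested regions 22.9% were lower and 28.6% higher in all 3. The RPIA gene body region, whose lower score was set by the filter, is among the 10 and among the 5 lower distal regions. The 1 higher was the TALDO1 gene body region, not called in replicate 1 of either group. Its pair 1 change of 0.25 is that between uncalled libraries tied lowest, so no rise was measured there. Such ties also enter the share over all regions. These counts and medians are descriptions of a small number of regions, several of which share a gene.

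A wider list of 16 genes that make or use the same cofactor and sugars (H6PD, RPE, TKTL1, SHPK, PRPS1, PRPS2, RBKS, IDH2, ME2, ME3, NNT, NADK, NADK2, MTHFD1, MTHFD2 and ALDH1L1) gave 56 regions, of which 40 were tested. Their scores were lower in 17 and higher in 23, with a median change of 0.13. ME3 alone gave 19 of the 56 regions, and nearly all of its tested regions were higher, so these counts lean on 1 gene. Of the 13 tested own promoters 8 were lower and 5 higher (median -0.02). Of the 23 tested distal regions 6 were lower and 17 higher (median 0.31). In limma 0 of the 40 passed as lower and 0 as higher, and 8 had an unadjusted p under 0.05, a share close to that over all regions. With the replicate block 2 regions of these genes passed as lower and 1 as higher, which as shares of 40 are below those over all regions with the block (6.62% lower and 5.72% higher). Those lower were the promoter of NADK, the kinase that makes NADP (change -0.97, limma adjusted p = 0.0598 without and 0.0188 with the block), and a region in MTHFD1 called in 3 control and 0 NRF2 siRNA libraries (-1.11, 0.0657 and 0.0317). The one higher was a region in ME3 called in 0 control and 3 NRF2 siRNA libraries (0.83, 0.218 and 0.0305). The MTHFD1 and ME3 regions entered the test through the calls of 1 group alone, so the direction of their scores was set by the filter and their p-values are no support for a difference.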

How the data were processed

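H3K27ac ChIP-seq peak lists of 6 A549 libraries were used, and the 2 input samples were not analysed here. Per the study's methods and the submitters' processing notes, the authors mapped reads against hg19 (Bowtie2 2.2.6), filtered them on mapping quality (SAMtools), ran MACS2 2.1.0.20151222 on each library alone and discarded blacklisted peaks. The deposited lists give an integer score, the fold enrichment over background (a ratio), and p- and q-values as −log10 for each peak. They hold no read counts per peak, so no counting interval is given for single values. Which background the fold refers to is not given in the sources used here.

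Of 202238 peaks, 136 lay on 10 contigs outside the 24 chromosomes, and 0 ran past the end of a GRCh37 chromosome. Genes came from GENCODE on GRCh37. Peaks were merged at 1 base or more of overlap, and each region took a library's highest fold. Ranks over regions called in at least 3 of 6 libraries, with uncalled regions tied lowest, were turned into normal scores and compared with limma 3.58.1 (R 4.3.3), Benjamini-Hochberg adjusted, at a threshold of 0.05. The step was tested on simulated scores. Percentiles were compared by exact permutation, two-sided (scipy 1.17.1, Python 3.11.15), whose smallest p is 0.1. Sequences were read with pysam 0.24.0.

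Deviations from the group mean were correlated within each replicate number (r = 0.398, 0.199 and 0.363 in pairs 1, 2 and 3, numbers from the sample titles). Between different numbers r ran from -0.383 to 0.107. A replicate block was therefore an alternative. List length and coverage also rose with replicate number in both groups, and what the correlation reflects was not tested. Other alternatives were equal list lengths, a −log10 q of 5 or more, merging across gaps of up to 500 bases, other region filters, other windows (5 and 100 kb), a length-weighted mean fold, replicates 2 and 3 only, eBayes with trend and robust options and leaving out each library. Per-library values are printed for each member's own promoters and for regions past the threshold or without overlap of called percentiles. Of the wider list, the regions past the threshold with the block are named, and they were chosen after their values were seen. One gene of the wider list is not reported here and enters none of its counts. PECAM1, a marker, was not found under that symbol. The members and lists were chosen with earlier results of these data known.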

Additional observations from a re-analysis of the deposited data

Results flagged for a closer look

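In 2 of the tested regions the pair with NRF2 siRNA 28 moved one way and both pairs with NRF2 siRNA 30 the other. In the TKT promoter region, which takes in most of the gene, the change in score was 0.35 in the siRNA 28 pair and -0.12 and -0.38 in the siRNA 30 pairs. The highest peak with siRNA 28 lay 10.3 to 20.6 kb past the TKT start (94.5 percentile). In that library the peak nearest the start stood at the 41.3 percentile and did not cover the start. At the GATD1 promoter, 3′ of TALDO1, it was 0.88 in the siRNA 28 pair and -0.23 and -0.29 in the siRNA 30 pairs. The difference between the siRNAs was not tested, since siRNA 28 has 1 pair, and siRNA and batch cannot be told apart.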

How the results depend on the processing

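The TALDO1 promoter was lower in each of 17 settings, and the count of member regions called higher was 0 throughout. The count called lower was 1, and became 2 with regions called in at least 1 library, with the length-weighted mean fold, with the replicate block and with replicates 2 and 3 only, 3 with the replicate block and equal list lengths together, and 4 with eBayes trend and robust options. It ran from 0 to 2 when 1 library was left out: 0 without control siRNA replicate 2 or 3 or NRF2 siRNA replicate 2, and 2 without NRF2 siRNA replicate 1. The RPIA gene body region was the added call with regions called in at least 1 library and with the replicate block. It was also the added call with replicates 2 and 3 only and without NRF2 siRNA replicate 1, and was among the 4. That region entered through its control calls alone, so these calls are no support for a difference. Without control siRNA replicate 2, limma made 0 calls over all regions, with 6033 at an unadjusted p under 0.05. Over all 32673 regions the main fit called 1108 lower and 657 higher, and the replicate block 2164 and 1868. Replicates 2 and 3 only gave 1975 and 1719, and the trend and robust options 1499 and 1175. The length-weighted mean fold gave 1133 and 671, and regions called in at least 1 library 1125 and 427 of 49186. Leaving out NRF2 siRNA replicate 1 gave 1716 and 882. Equal list lengths left 23179 regions to test, 14 of them member regions, with 1321 lower and 1185 higher. With the block as well, 2041 and 2151 were called. The 16 other genes reported (0 lower, 0 higher) gave 1 and 1 with equal list lengths, where 35 of their regions were tested. They gave 2 and 1 with the replicate block, and 1 and 5 with both. When 1 library was left out, 0 to 2 of their regions were called lower (2 without NRF2 siRNA replicate 1). The own promoter median of -0.36 became -0.40 with equal list lengths (with or without the block), -0.63 at a −log10 q of 5 or more, -0.47 with regions called in all 6 libraries and -0.29 with those called in at least 1, and ran from -0.38 to -0.30 with 1 library left out. The distal median of -0.49 became -0.60 with equal list lengths (with or without the block) and -0.61 with regions called in all 6, and ran from -0.60 to -0.38. At a −log10 q of 5 or more, 5 member regions in place of 11 were called in all 6 libraries and 0 in place of 1 in controls alone. Some regions below the threshold changed sign. The CENPS promoter went to 0.23 and GATD1 to -0.36 at a −log10 q of 5 or more, and GATD1 to -0.26 with replicates 2 and 3 only. With 1 library left out, scores ran from -0.17 to 0.10 at the TKT promoter (0.10 without control siRNA replicate 3, 0.02 without NRF2 siRNA replicate 2), from -0.17 to 0.29 at GATD1, from -0.013 to 0.46 at the RPIA promoter and from -0.40 to 0.28 at the PGM3 and RWDD2A promoter. Percentile differences ran from -2.04 to 1.75 points at TKT (0.0263 without control siRNA replicate 2, 0.493 without NRF2 siRNA replicate 2), from -6.12 to 12.6 at GATD1 and from -3.40 to 20.2 at the RPIA promoter (-2.65 without NRF2 siRNA replicate 3). The cause of these moves was not tested. Besides TALDO1, the block with equal list lengths called the ME1 promoter and the region upstream of PGD, and the block alone the RPIA gene body region. It changed no other member's call. Without read counts, depth cannot be set against any single value.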
